A study of Homo sapiens with 12 samples.

Results

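The effect of losing *miR-34a*, *miR-34b* and *miR-34c* in cells exposed to 5-fluorouracil (5-FU) was measured by RNA sequencing of HCT116, an established human colorectal cancer cell line with functional p53. 5-FU is a pyrimidine analog that inhibits thymidylate synthase, is incorporated into RNA and DNA and activates p53. Cells were treated with 5-FU for 48 h, and 3 libraries of *miR-34a/b/c-KO* (KO) cells (replicates 1 to 3) were compared with 2 libraries of *WT* cells (replicates 2 and 3), 5 of the 12 libraries of the series. A gene was included if any library held 20 counts of it or more, which left 16123 of the 60580 genes listed. The counts deposited for replicate 1 of *WT* cells under 5-FU were the same as in *WT* replicate 3 of the solvent control, DMSO (0 of 60580 genes differed), and this library was left out. The 6 other libraries, 3 of *WT* and 3 of KO cells treated with DMSO, contributed to the estimate of the spread and are shown beside the 5-FU values where they bear on them. In the KO cells the genomic regions encoding all 3 precursors had been removed with Cas9 and pairs of guide RNAs, whereas *WT* cells had received the same vector without a guide. Both were expanded from single cells, and the text of the study does not say whether the replicates of a state are different clones. The p-values therefore measure only the spread between these samples, and differences between clones cannot be told apart from the loss of the miRNAs.

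The miR-34 genes are direct transcriptional targets of p53. Their mature products are loaded into Argonaute, pair through the seed, bases 2 to 8 from the 5' end, with sites that lie mostly in 3' UTRs, and lower the stability and translation of the mRNAs that carry them. The family is known in colorectal cancer for repressing cyclins, CDKs, SNAI1 and other factors of the cell cycle, of epithelial-mesenchymal transition and of autophagy.

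The mature sequences show which other miRNAs share the seed of the deleted ones. They were taken from RefSeq (GRCh38.p14), which held 5 of the 6 family members looked up, and the seed is in capitals. hsa-miR-34a-5p, miR-449a and miR-449b-5p carry the same seed, and hsa-miR-34b-5p and miR-449c-5p carry a seed that is shifted by 1 base.
hsa-miR-34a-5p: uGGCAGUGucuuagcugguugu
hsa-miR-449a: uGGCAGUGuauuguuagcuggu
hsa-miR-449b-5p: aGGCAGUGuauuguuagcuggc
hsa-miR-34b-5p: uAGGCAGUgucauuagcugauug
hsa-miR-449c-5p: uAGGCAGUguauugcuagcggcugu
hsa-miR-34a-5p is encoded at chr1:9151735-9151756 on the minus strand, and hsa-miR-34b-5p at chr11:111512950-111512972 on the plus strand. The entries *MIR34A*, *MIR34B* and *MIR34C* had 0 counts in every library, including those of *WT* cells. Libraries of long RNA do not capture mature miRNAs, so these entries do not check the deletion.

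*MIR34AHG*, the long non-coding RNA that serves as host transcript of *miR-34a* (chromosome 1, positions 9148011 to 9198906, minus strand), was detected in all libraries. It stood at 17.0 and 15.4 CPM (counts per 1e+06 counts of the scaled library total) in *WT* cells and at 62.7, 65.8 and 65.3 CPM in KO cells treated with 5-FU. All KO libraries were above both *WT* libraries, and the log2 fold change of KO to *WT* was 1.99 (SE 0.08, FDR = 3.32e-11). FDR stands for the p-value of the quasi-likelihood test of edgeR after Benjamini-Hochberg adjustment over the 16123 genes. The same transcript was at 4.84 ± 0.467 CPM in *WT* and 22.2 ± 0.295 CPM in KO cells under DMSO (SD, n = 3). *BTG4*, the gene next to *miR-34b* and *miR-34c*, reached at most 1 count in a library.

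The *WT* libraries treated with 5-FU held 39064210 and 29236075 counts and were deeper than those of KO cells, which held 22831415 to 25698417. KO replicate 1 stood apart in copies of the ribosomal RNA gene. *FP236383.4*, for example, was at 2130 CPM there, at 204 and 220 CPM in replicates 2 and 3 and at 181 and 171 CPM in *WT* cells, and its log2 fold change of 2.27 (FDR = 0.0346) was 0.27 (FDR = 0.692) without that replicate, 2.32 without *WT* replicate 2 and 2.23 without *WT* replicate 3, with no call in any of these fits. *FP671120.7* and *FP236383.5*, near-identical copies between which reads cannot be assigned with certainty, behaved alike, and *WT* replicate 2 under DMSO was also apart in them (512 to 516 CPM). Of 22 markers of blood, stroma, vessel, nerve, muscle and liver, 6 passed the count minimum, and their sum was 55.9 and 67.0 CPM in *WT* and 74.0 to 76.2 CPM in KO libraries, with 4 to 8 of the 22 markers at 0. The collagen gene *COL1A1* made up most of this sum, and *HBA1* was the only one of the 6 that was called (lower). Among the defining ones, *PTPRC* and *CD3E* of blood, *DCN* and *LUM* of stroma and *ALB* of liver had at most 5 counts in any of these 5 libraries. Of 8 markers of colorectal carcinoma cells, 7 were measured, with a sum of 12200 and 11100 CPM in *WT* and 8560 to 9040 CPM in KO libraries, while *CEACAM5* had at most 2 counts.

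A gene was called when its FDR was below 0.05 and its fold change above 1.5. After 5-FU, 1222 genes (7.58% of those tested) were called higher and 1702 (10.6%) were called lower in KO than in *WT* cells. Without a minimum fold change 3483 (21.6%) were higher and 4512 (28.0%) lower at FDR below 0.05. The 3 KO libraries were all above both *WT* libraries in 4494 genes (27.9%) and all below in 5665 genes (35.1%), and this separation held for 1217 of the genes called higher and 1691 of those called lower. Nearly all called genes thus separated in this way, so a lack of overlap given below for single genes adds little to their calls. Most called differences were of moderate size. The median fold was 1.84 for genes called higher, of which 464 exceeded 2-fold, 93 exceeded 4-fold and 37 exceeded 8-fold. Among genes called lower the median fold was 1.96, with 820 above 2-fold, 226 above 4-fold and 66 above 8-fold. Across all genes tested, the median log2 fold change was -0.05, and the middle 50% lay between -0.34 and 0.24. Called in every one of the fits that left out 1 library were 743 of the genes called higher (60.8%) and 1029 of those called lower (60.5%). With TMM factors the counts were 1371 higher and 1516 lower, and with DESeq2 1339 and 1332.

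**Figure D1:**
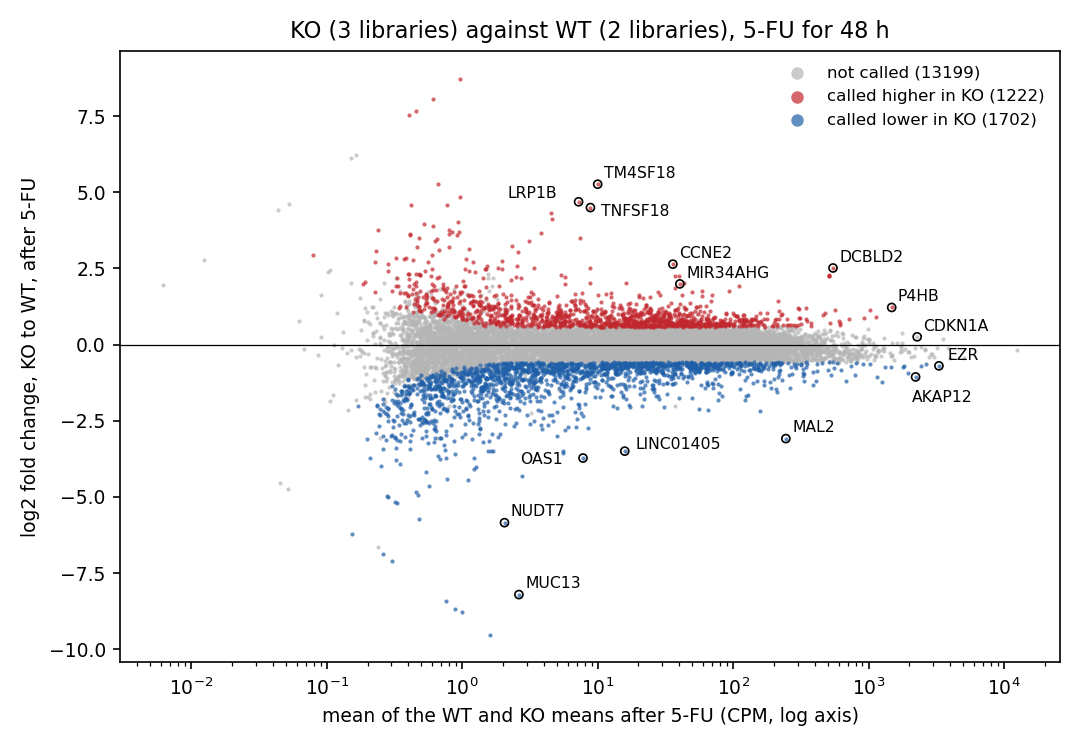
Log2 fold change of KO to *WT* cells after 5-FU (y axis) against the mean of the 2 state means in CPM (x axis, log scale) for each of 16123 genes. Red points are the 1222 genes called higher, blue points the 1702 called lower, grey points the others, and circles mark named genes, of which *DCBLD2* and *MAL2* combine a large fold with a high level.

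Several of the largest differences at a level of at least 5 CPM concerned genes that were nearly silent in *WT* cells. *TM4SF18*, a tetraspanin-like membrane protein, was at 0.57 and 0.411 CPM in *WT* and at 19.7, 19.2 and 19.5 CPM in KO libraries, a log2 fold change of 5.27 (SE 0.15, FDR = 3.81e-13). *TNFSF18*, the ligand of the T cell receptor GITR, was at 0.518 and 1.03 CPM against 17.1, 15.9 and 17.7 CPM. *LRP1B*, a large receptor of the LDL receptor family, was at 0.389 and 0.72 CPM against 14.0, 13.9 and 13.7 CPM. All 3 genes were picked by their fold among genes without overlap between the 2 states. The differences were present under DMSO as well (log2 fold changes of 5.50, 4.35 and 3.29). The other genes with the largest folds were *TARID* (4.31), *CNTN1* (4.11), *ENKD1* (3.66), *SPARC* (3.51), *UGT1A6* (3.42), *CCNE2* (2.64), *DCBLD2* (2.52), *ZNF30* (2.52) and *RNF152* (2.50), given as log2 fold changes. The *UGT1A* genes share their last exons, so that reads cannot be assigned to *UGT1A6* with certainty. *DCBLD2*, a neuropilin-like membrane protein, had the largest fold among genes called higher in KO cells with at least 100 CPM there. It was at 161 and 164 CPM in *WT* and at 925, 890 and 972 CPM in KO libraries (SE 0.06, FDR = 8.87e-14).

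In the opposite direction, *MAL2*, which takes part in apical transport in epithelial cells, was at 400 and 476 CPM in *WT* and at 53.9, 51.5 and 49.2 CPM in KO libraries. Its log2 fold change was -3.09 (SE 0.07, FDR = 5.23e-14), and that of its 40 neighbours on chromosome 8 had a median of -0.68. *OAS1*, an interferon-induced enzyme that activates RNase L, was at 12.1 and 17.0 CPM against 1.35, 1.15 and 0.752 CPM (log2 fold change -3.72, SE 0.23, FDR = 2.76e-09). The long non-coding RNA *LINC01405* was at 32.7 and 25.5 CPM against 2.42, 2.79 and 2.51 CPM. These genes were picked among those whose libraries did not overlap between the 2 states, so the lack of overlap is no separate result. So were *DAPP1* (-3.56), *SPNS3* (-3.50), *IL1RN* (-2.99), *AC016074.2* (-2.79), *ZNF525* (-2.77), *FGFBP1* (-2.75), *AC025419.1* (-2.71) and *BST2* (-2.71), which complete the largest decreases at this level together with *MUC13*. *MUC13*, a membrane mucin of the intestinal epithelium, had 155 and 188 counts in the *WT* libraries and 1, 0 and 0 counts in the KO libraries. Relative to the scaled totals this is a ratio of 385 with an exact 95% counting interval of 68.7 to 1.53e+04, which covers counting error only.

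A few more genes were switched between detection and near absence. *NUDT7*, a peroxisomal coenzyme A hydrolase, had 144 and 127 counts in *WT* and 2, 3 and 0 in KO libraries (ratio 60.8, interval 25.8 to 189). *AL034430.1* had 62 and 70 counts against 0 in all 3 libraries, at least 16-fold lower when 3 counts per library are taken as the floor. *ZNF702P*, a zinc finger pseudogene, had 1 and 3 counts in *WT* and 51, 44 and 45 in KO libraries (ratio 31.2, interval 11.9 to 116). In all, 13 genes called higher had at most 3 counts in each *WT* library, and 45 genes called lower had at most 3 counts in each KO library. Measured as a difference of mean CPM, the largest increases besides *DCBLD2* and *FP236383.4* were those of *P4HB*, *HSP90B1* and *GDF15*. The largest decreases were those of *AKAP12*, a scaffold of protein kinase A, *EZR*, which links the membrane to actin, *ENO1*, *KRT18* and *RPL8*. *AKAP12* was at 2940 and 3050 CPM in *WT* and at 1410, 1420 and 1470 CPM in KO libraries, and *EZR* at 4070 and 4090 CPM against 2490, 2470 and 2590 CPM. *ENO1*, *KRT18* and *RPL8* have processed pseudogenes of similar sequence, so that part of their reads may be assigned elsewhere.

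Published or predicted targets of miR-34 were examined as a list of 69 genes, of which 63 were tested. Of these, 10 were called higher (15.9%, beside 7.58% of all genes) and 6 were called lower (9.52%, beside 10.6%), 29 were higher and 16 lower at FDR below 0.05 (46.0 and 25.4%, beside 21.6 and 28.0%), and 18 did not pass. The median log2 fold change was 0.13, beside -0.05 for all genes, and 0.02 under DMSO. The list thus held genes that moved either way, and many of them by less than 1.5-fold.

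Among the 14 targets of the cell cycle, 3 were called higher and 1 lower (21.4 and 7.14%, beside 7.58 and 10.6% of all genes), and the median was 0.15. *CCNE2*, which encodes cyclin E2 and drives entry into S phase, was at 8.89 and 11 CPM in *WT* and at 61.1, 62.7 and 61.6 CPM in KO libraries (log2 fold change 2.64, SE 0.10, FDR = 9.86e-12). *CDK6*, a kinase that phosphorylates RB1 together with D-type cyclins, was at 32.7 and 41.3 CPM against 100, 95.9 and 104 CPM (1.44, SE 0.08, FDR = 1.53e-09). *CDC25A*, a phosphatase that activates CDK2, was at 20.3 and 18.5 CPM against 48.9, 51.0 and 48.9 CPM (1.35, SE 0.07, FDR = 8.69e-10). In each of these genes every KO library was above both *WT* libraries, as the plot of expression by library shows. Under DMSO only *CDK6* was called among them, whereas *CCNE2* and *CDC25A* differed by -0.17 and -0.16. *MYC* lay in the opposite direction, with 473 and 414 CPM in *WT* and 218, 218 and 237 CPM in KO libraries (-0.98, FDR = 2.91e-09), within a run of neighbours on chromosome 8 whose median around *MYC* was -0.81. *FOXM1*, a transcription factor of the G2/M program, was at 94.7 and 87.1 CPM against 107, 107 and 109 CPM (0.24, FDR = 0.00195) and was not called, and neither were *CCNE1* (0.13), *CCND1* (-0.33), *CDK4* (-0.14) and *E2F3* (0.30).

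**Figure D2:**
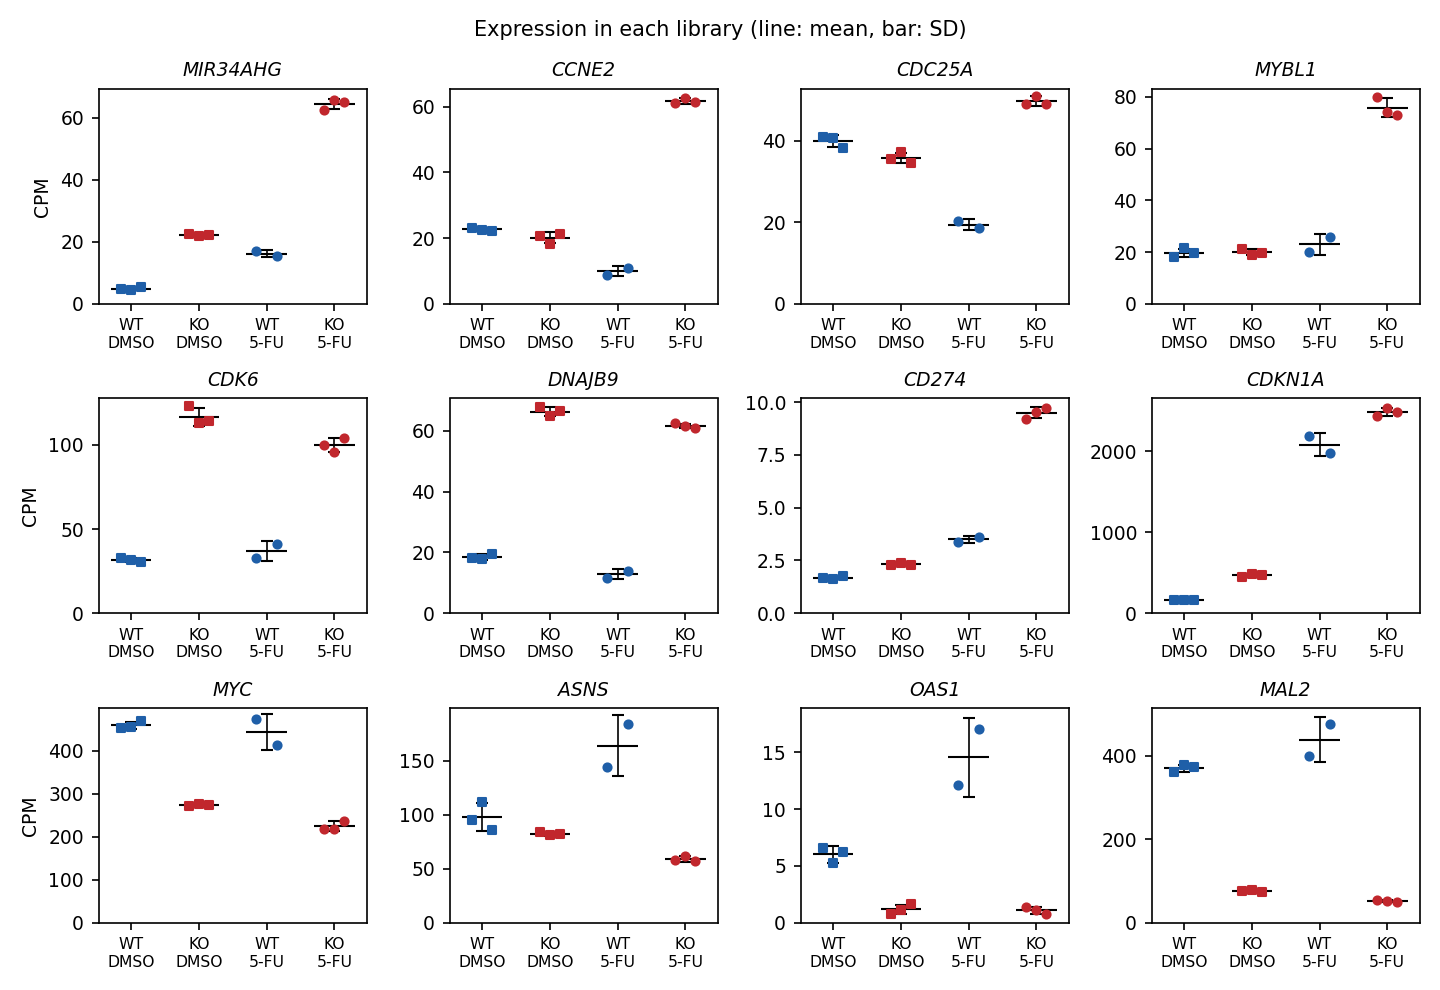
CPM of 12 genes (y axes, from 0) in each of the 11 libraries, grouped by genotype and treatment (x axis). Squares are DMSO and circles 5-FU libraries, blue is *WT* and red KO, lines are means and bars SD. *CCNE2* reached 61.1 to 62.7 CPM in KO and at most 11 CPM in *WT* cells after 5-FU, when *CDKN1A* lay between 1980 and 2530 CPM in both.

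The 8 targets of autophagy and of the unfolded protein response all had positive log2 fold changes, with a median of 0.43. At FDR below 0.05, 7 of them were higher (87.5%, beside 21.6% of all genes). *ATG4B*, the protease that processes LC3, was at 47.3 and 38.2 CPM in *WT* and at 93.7, 93.1 and 90.5 CPM in KO libraries (1.11, FDR = 7.39e-09), but the 40 genes around it on chromosome 2 had a median of 1.01. *XBP1*, a transcription factor of the unfolded protein response, was at 45.8 and 55.5 CPM against 88.1, 89.2 and 89.8 CPM (0.82, FDR = 3.77e-07). The remaining members were not called. *ATG9A*, which delivers membrane to autophagosomes, was at 72.2 and 61.8 CPM against 81.9, 84.3 and 86.1 CPM (0.33, FDR = 0.000608). The values of *ATG13* (0.46) and *ULK2* (0.44), which are predicted targets, and of *ULK1* (0.41) and *ERN1* (0.41) were similar, and *ATG5* had a value of 0.01.

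Of 17 targets of epithelial-mesenchymal transition, migration and receptor signalling, 3 were called higher and 2 lower, with a median of -0.14. These are 17.6 and 11.8%, beside 7.58 and 10.6% of all genes, so the share called lower was near that of all genes. *CD274*, which encodes the immune checkpoint ligand PD-L1, was at 3.39 and 3.60 CPM in *WT* and at 9.20, 9.55 and 9.73 CPM in KO libraries (1.44, SE 0.12, FDR = 1.4e-07). *ZEB1*, a repressor of epithelial genes, was at 1.45 and 1.54 CPM against 4.84, 5.50 and 4.39 CPM (1.72, SE 0.19, FDR = 2.06e-06). *AREG*, a ligand of EGFR, was at 200 and 211 CPM against 328, 340 and 306 CPM (0.66). *CD24*, a surface glycoprotein whose reads can be shared with processed copies, was at 21.0 and 24.6 CPM against 8.80, 8.92 and 9.36 CPM (-1.33). *CSF1R*, the receptor of the macrophage growth factor CSF1, was at 0.777 and 0.857 CPM against 0.0793, 0.112 and 0.251 CPM (-2.45). The groups did not overlap in these 5 genes, as in nearly all genes called. *SNAI1*, which encodes the EMT factor SNAIL, was at 5.80 and 5.28 CPM against 7.33, 6.32 and 7.60 CPM (0.35, FDR = 0.0209) and was not called. *MET* (-0.14), *AXL* (0.39) and *IL6R* (0.41) were not called either.

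Of 7 targets in the Notch and Wnt pathways only *NOTCH1* was called (14.3%, beside 7.58% of all genes called higher). It was at 175 and 138 CPM in *WT* and 270, 282 and 293 CPM in KO libraries (0.85). *NOTCH1* lies within a run of neighbouring genes on chromosome 9 that were higher together. Among 17 targets with roles in survival, metabolism and other processes, only *BCL2* was called higher (5.88%, beside 7.58% of all genes). This inhibitor of apoptosis was at 2.49 and 2.74 CPM against 5.19, 4.87 and 4.84 CPM (0.93, SE 0.15, FDR = 7.26e-05). *LDHA* (-0.72), *TPD52* (-0.84) and *HNF4A* (-2.95) were called lower (17.6%, beside 10.6% of all genes). *HNF4A*, a transcription factor of intestinal and hepatic epithelium, was at 2.95 and 1.75 CPM in *WT* and at 0.198, 0.297 and 0.418 CPM in KO libraries. *AREG*, *NOTCH1*, *XBP1*, *LDHA*, *TPD52* and the targets given above as not called, apart from *FOXM1*, *ATG9A* and *SNAI1*, were named after their values had been seen.

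Sites for the seed of miR-34a were found in the 3' UTRs of targets that were higher and of targets that were lower, and examples of either are shown. Each was found by a search for CACTGCC, the reverse complement of bases 2 to 8, in the spliced 3' UTR of 1 transcript per gene (GENCODE release 44, GRCh38). The match is in capitals, coordinates are those of the match, and an A right after it makes an 8mer site. The first 5 genes were called higher and the last 3 were called lower.
CDK6, chr7:92614046-92614052, minus strand: ctttctgccacaCACTGCCttg
ZEB1, chr10:31529592-31529598, plus strand: tctcacattcctCACTGCCtaa
AREG, chr4:74454775-74454781, plus strand: tcacattggagtCACTGCCaag
ATG4B, chr2:241672530-241672536, plus strand: gtgttctctcgaCACTGCCagc
XBP1, chr22:28795129-28795135, minus strand: ccttgactattaCACTGCCtgg
LDHA, chr11:18407538-18407544, plus strand: cctctgacgcacCACTGCCaat
HNF4A, chr20:44429829-44429835, plus strand: agggccacatccCACTGCCacc
CSF1R, chr5:150053871-150053877, minus strand: agcatgggccatCACTGCCagt
*CDK6* held a further match in a 3' UTR of 10219 bases, and *HNF4A* held 3 matches in all. *CCNE2* and *NOTCH1*, both called higher, held matches that are not printed, with an 8mer site in *CCNE2*. *CDC25A* and *CD274*, also called higher, held only the 6-base part of the match followed by A. The genes printed are examples, so their number in either direction does not measure how common sites were. *MYC* and *CD24*, both called lower, held neither this match nor its 6-base part followed by A in the transcript searched.

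Across the 13254 genes with an annotated 3' UTR, 2323 (17.5%) held CACTGCC. Their median log2 fold change was -0.00, with 204 called higher and 203 lower (8.78 and 8.74%), whereas over all genes with a 3' UTR 994 (7.5%) were called higher and 1288 (9.72%) lower. Genes with a match had longer 3' UTRs (median 2486 bases, beside 1278 bases for all), so the values were also set side by side within classes of length. Below 500 bases the median was -0.14 for 133 genes with and -0.16 for 3169 genes without a match. It was -0.04 for both from 500 to under 1500 bases (539 and 3456 genes), 0.00 and 0.01 from 1500 to under 3000 bases (697 and 2420 genes), and 0.02 and 0.04 from 3000 bases on (954 and 1886 genes). Within a class of length the medians after 5-FU with and without a match thus lay within 0.02 of each other, and they increased with the length of the 3' UTR in either group. Under DMSO the median was higher with a match in each class. It was 0.07 with and -0.01 without a match below 500 bases, and 0.04 and -0.01 from 500 to under 1500 bases. From 1500 to under 3000 bases it was 0.03 and 0.00, and from 3000 bases on 0.04 and 0.00. Whether these differences exceed the spread was not tested.

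**Figure D3:**
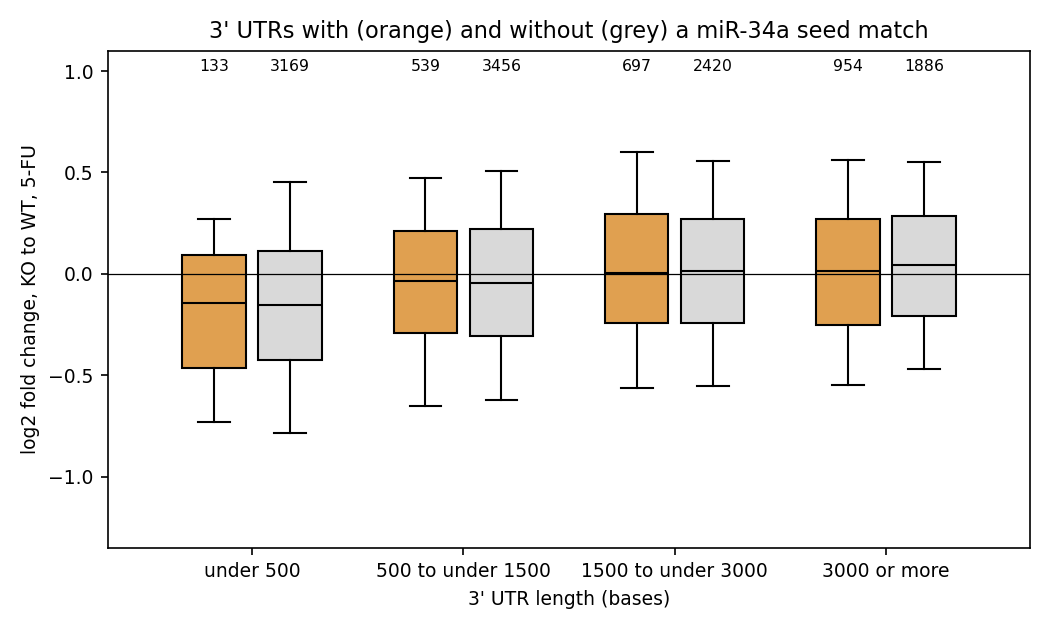
Log2 fold change of KO to *WT* cells after 5-FU (y axis) for genes with (orange) and without (grey) the match CACTGCC, by length of the 3' UTR (x axis). Boxes span the middle 50% of genes, lines are medians, whiskers reach the 10th and 90th percentile, and the numbers give the genes per box. Medians of the same length class lie within 0.02 of each other.

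Many genes of S phase and DNA replication were higher in KO cells after 5-FU. Of 43 genes, 16 were called higher and 0 lower (37.2%, beside 7.58% of all genes), 35 were higher and 3 lower at FDR below 0.05, and the median log2 fold change was 0.45. Under DMSO the same list had a median of -0.45, with 0 called higher and 6 lower. *CLSPN*, which encodes the checkpoint adaptor claspin, was at 31.2 and 32.5 CPM in *WT* and at 74.2, 75.8 and 77.3 CPM in KO libraries (1.25, SE 0.07, FDR = 8.37e-10). *DTL*, the substrate receptor of a ubiquitin ligase that degrades CDT1 and p21 on replicating DNA, was at 29.8 and 33.6 CPM against 73.3, 76.4 and 72.5 CPM (1.23). *EXO1*, a nuclease of mismatch repair and end resection, was at 26.0 and 30.6 CPM against 55.9, 57.3 and 52.8 CPM (0.97). The groups did not overlap in any of these genes, as in nearly all genes called. In bulk RNA a larger share of cells in S phase and more RNA per cell cannot be told apart.

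Transcription regulators of the cell cycle, 21 genes of the E2F, RB, DREAM and MYB families, had a median of 0.51, with 8 called higher (38.1%, beside 7.58% of all genes) and 0 lower. *MYBL1*, a paralog of the transcription factor MYBL2, was at 20.2 and 25.9 CPM in *WT* and at 80, 74.3 and 73.2 CPM in KO libraries (1.72, SE 0.10, FDR = 1.94e-09). *E2F1*, an activator of S-phase genes, was at 29.0 and 22.4 CPM against 48.8, 47.7 and 50.7 CPM (0.93). *E2F7*, a repressor of the same genes and itself induced by p53, was at 55.3 and 59.4 CPM against 120, 121 and 115 CPM (1.05). *LIN52*, a subunit of the DREAM and MMB complexes, was at 9.41 and 11.6 CPM against 17.4, 16.4 and 18.3 CPM (0.74). Activators and repressors were thus called in the same direction.

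Of 23 cyclins, CDKs and CDK inhibitors, 6 were called higher (26.1%, beside 7.58% of all genes) and 0 lower, 3 of them among the 7 inhibitors. The largest of these was *CDKN2B*, the inhibitor p15 of CDK4 and CDK6, at 11.6 and 13.1 CPM in *WT* and 36.6, 33.8 and 37.9 CPM in KO libraries (1.55, SE 0.09, FDR = 1.35e-09). Genes of homologous recombination and the Fanconi anemia pathway (32) had a median of 0.37, with 10 called higher and 2 lower (31.2 and 6.25%, beside 7.58 and 10.6% of all genes), and under DMSO it was -0.26, with 0 and 5. *RAD54B*, a DNA translocase, was at 19.3 and 21.8 CPM in *WT* and at 45.4, 43.0 and 42.0 CPM in KO libraries (1.08). The related *RAD54L* was at 30.6 and 26.9 CPM against 58.1, 55.0 and 58.5 CPM (0.99), and *BRCA2*, a mediator of strand exchange, at 12.3 and 14.3 CPM against 24.0, 25 and 21.5 CPM (0.82). *FANCF* (-0.83) and *RAD51B* (-0.80) went the other way. Genes of the G2 and M phases (54) had a median of 0.01 (-0.06 without *WT* replicate 2 and 0.16 without *WT* replicate 3), beside -0.34 under DMSO. At FDR below 0.05, 18 were higher (33.3%, beside 21.6% of all genes) and 11 lower (20.4%, beside 28.0%). By the minimum fold 4 were called higher (7.41%, beside 7.58%) and 0 lower, and the 4 were *HJURP* (1.21), *CBX5* (0.79), *TUBB4B* (0.78) and *CKAP2L* (0.74). *HJURP* and *TUBB4B* lie in runs of neighbours on chromosomes 2 and 9 that were higher together, which left 2 calls outside these runs.

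Of 57 direct p53 targets, 11 were called higher and 3 lower (19.3 and 5.26%, beside 7.58 and 10.6% of all genes), and the median was 0.13. With TMM factors 17 were called higher and 3 lower, and with DESeq2 17 and 2. Under DMSO 17 were called higher and 2 lower, with a median of 0.35. *CDKN1A*, the CDK inhibitor p21, was at 2180 and 1980 CPM in *WT* and at 2430, 2530 and 2480 CPM in KO libraries, a log2 fold change of 0.26 (SE 0.05, FDR = 0.000618) that was below the minimum fold. *MDM2*, the ubiquitin ligase of p53, was at 1010 and 1230 CPM against 818, 794 and 822 CPM (-0.46, FDR = 4.23e-05) and was called only without *WT* replicate 2 (-0.60). *GDF15*, a secreted stress cytokine, was at 744 and 553 CPM against 1390, 1390 and 1460 CPM (1.12, FDR = 4.29e-08). *DDIT4*, an inhibitor of mTORC1, was at 381 and 346 CPM against 180, 191 and 182 CPM (-0.98, FDR = 1.89e-08). *RRM2B*, the p53-induced subunit of ribonucleotide reductase, was at 313 and 412 CPM against 236, 228 and 232 CPM (-0.65), and without *WT* replicate 3 its value was -0.44 and not called. *SPATA18*, which acts in mitochondrial quality control, had 0 counts in both *WT* libraries and 30, 22 and 17 counts in KO libraries, at least 8.81-fold higher. *GLS2* (2.30) was at most at 1.07 CPM in any of these libraries, and *EDA2R* (-1.86) at most at 0.548 CPM, with its call lost without *WT* replicate 3 (-1.82), KO replicate 1 (-1.58) or replicate 3 (-1.46).

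Among 14 p53 targets that promote apoptosis, 3 were called higher (21.4%, beside 7.58% of all genes) and 0 lower. At FDR below 0.05, 10 were higher (71.4%, beside 21.6%). In the BCL2 family with caspases and their regulators (32 genes) 7 were called higher and 2 lower (21.9 and 6.25%, beside 7.58 and 10.6% of all genes), and pro-survival and pro-death genes were among those called higher. *BCL2L11*, which encodes the pro-death protein BIM, was at 22.8 and 24.5 CPM in *WT* and at 41.7, 40.0 and 38.6 CPM in KO libraries (0.76, FDR = 4.64e-07). *BOK* (0.73) was called higher within the run on chromosome 2. *HRK*, another pro-death member, was at 6.97 and 5.55 CPM against 3.33, 3.57 and 4.26 CPM (-0.76), and its value was -0.58 and not called without *WT* replicate 2. *CASP10* (-0.64) was not called without *WT* replicate 3 (-0.53) or KO replicate 3 (-0.58).

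Enzymes that activate or degrade 5-FU or supply deoxynucleotides (28 tested) had a median of -0.11, with 4 called higher and 2 lower (14.3 and 7.14%, beside 7.58 and 10.6% of all genes). *TYMS*, which encodes thymidylate synthase, the target of 5-FU, was at 243 and 244 CPM in *WT* and at 214, 223 and 203 CPM in KO libraries (-0.19, FDR = 0.0158) and was not called. *RRM2*, the S-phase subunit of ribonucleotide reductase, was at 443 and 488 CPM against 766, 765 and 754 CPM (0.71, FDR = 1.13e-07). *UPP1*, the uridine phosphorylase that can convert 5-FU to its nucleoside, was at 21.5 and 23.9 CPM against 14.2, 15.1 and 11.8 CPM (-0.72). *UCK1* (1.02) and *DTYMK* (1.01), 2 nucleotide kinases, lie in the runs on chromosomes 9 and 2 that were higher together. *DCK*, which phosphorylates deoxycytidine, was at 27.7 and 36.3 CPM against 49.1, 51.2 and 49.6 CPM (0.65), and its value was 0.46 and not called without *WT* replicate 2.

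Many chaperones and other genes of the endoplasmic reticulum were higher in KO cells. Of 42 genes for chaperones, degradation of misfolded proteins (ERAD) and translocation, 19 were called higher and 1 lower (45.2 and 2.38%, beside 7.58 and 10.6% of all genes), the median was 0.51, and it was 0.61 under DMSO with 21 and 1. Among the 24 chaperones and stress sensors, 15 were called higher (62.5%, beside 7.58% of all genes) and 0 lower, with a median of 0.83. *DNAJB9*, a cofactor of BiP and a target of XBP1, was at 11.7 and 14.0 CPM in *WT* and at 62.4, 61.4 and 60.9 CPM in KO libraries (2.26, SE 0.08, FDR = 9.86e-12). *P4HB*, a protein disulfide isomerase, was at 948 and 829 CPM against 2040, 2110 and 2060 CPM (1.22, SE 0.05, FDR = 7.56e-11). *HSP90B1*, the Hsp90 of the endoplasmic reticulum, was at 733 and 855 CPM against 1480, 1510 and 1460 CPM (0.90). The secreted stress proteins *MANF* (1.28) and *CRELD2* (1.16) were called higher too. *SEC63*, a subunit of the translocon, was the exception, at 55.1 and 68.9 CPM in *WT* and 18.9, 17.8 and 18 CPM in KO libraries (FDR = 2.03e-10), and had a log2 fold change of -1.76 under DMSO. None of the 42 genes was called in the interaction.

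Genes of the ATF4 amino acid response belong to another branch of stress signalling that this compartment can activate. Of 31 genes, 0 were called higher and 13 lower (41.9%, beside 10.6% of all genes), 20 were lower and 2 higher at FDR below 0.05, and the median was -0.53, beside -0.05 under DMSO. *PHGDH*, the entry enzyme of serine synthesis, was at 194 and 188 CPM in *WT* and at 56.4, 59.7 and 60.8 CPM in KO libraries (-1.70, SE 0.06, FDR = 8.76e-12). *ASNS*, which makes asparagine, was at 144 and 184 CPM against 58.0, 62.1 and 57.1 CPM (-1.47, SE 0.10, FDR = 6.87e-09). *CHAC1*, which degrades glutathione, was at 20 and 18.4 CPM against 6.70, 5.65 and 5.64 CPM (-1.68, SE 0.13, FDR = 3.14e-08). *PCK2*, a mitochondrial enzyme of gluconeogenesis, was at 35.9 and 39.7 CPM against 16, 17.9 and 15.4 CPM (-1.20). The groups did not overlap in these genes, as in nearly all genes called.

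The core autophagy machinery (50 tested) had a median of 0.01 (-0.05 without *WT* replicate 2 and 0.08 without *WT* replicate 3). The 5 called higher (10%) were near the share over all genes (7.58%), and 1 was called lower (2.0%, beside 10.6%). Under DMSO the median was 0.11, with 7 called higher and 2 lower. *TP53INP2*, which recruits LC3 to autophagosomes, was at 24.5 and 22.3 CPM in *WT* and at 49.4, 52.3 and 51.7 CPM in KO libraries (1.13, FDR = 2.58e-08). *ATG16L1* (0.76) and *ATG4B* lie in the run on chromosome 2. *ATG4D* was at 35.2 and 25.1 CPM against 50, 51.8 and 53.4 CPM (0.77), and its value was 0.55 and not called without *WT* replicate 3. *MITF*, a transcription factor of lysosomal genes, was at 1.30 and 0.925 CPM in *WT* and at most 0.251 CPM in KO libraries (-3.19, FDR = 0.00012). *SQSTM1*, the autophagy receptor p62, was at 411 and 369 CPM against 543, 550 and 556 CPM (0.49, FDR = 1.71e-06) and was not called. Outside the runs of neighbouring genes the list kept 3 genes called higher and 1 lower, with a median of 0.00.

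**Figure D4:**
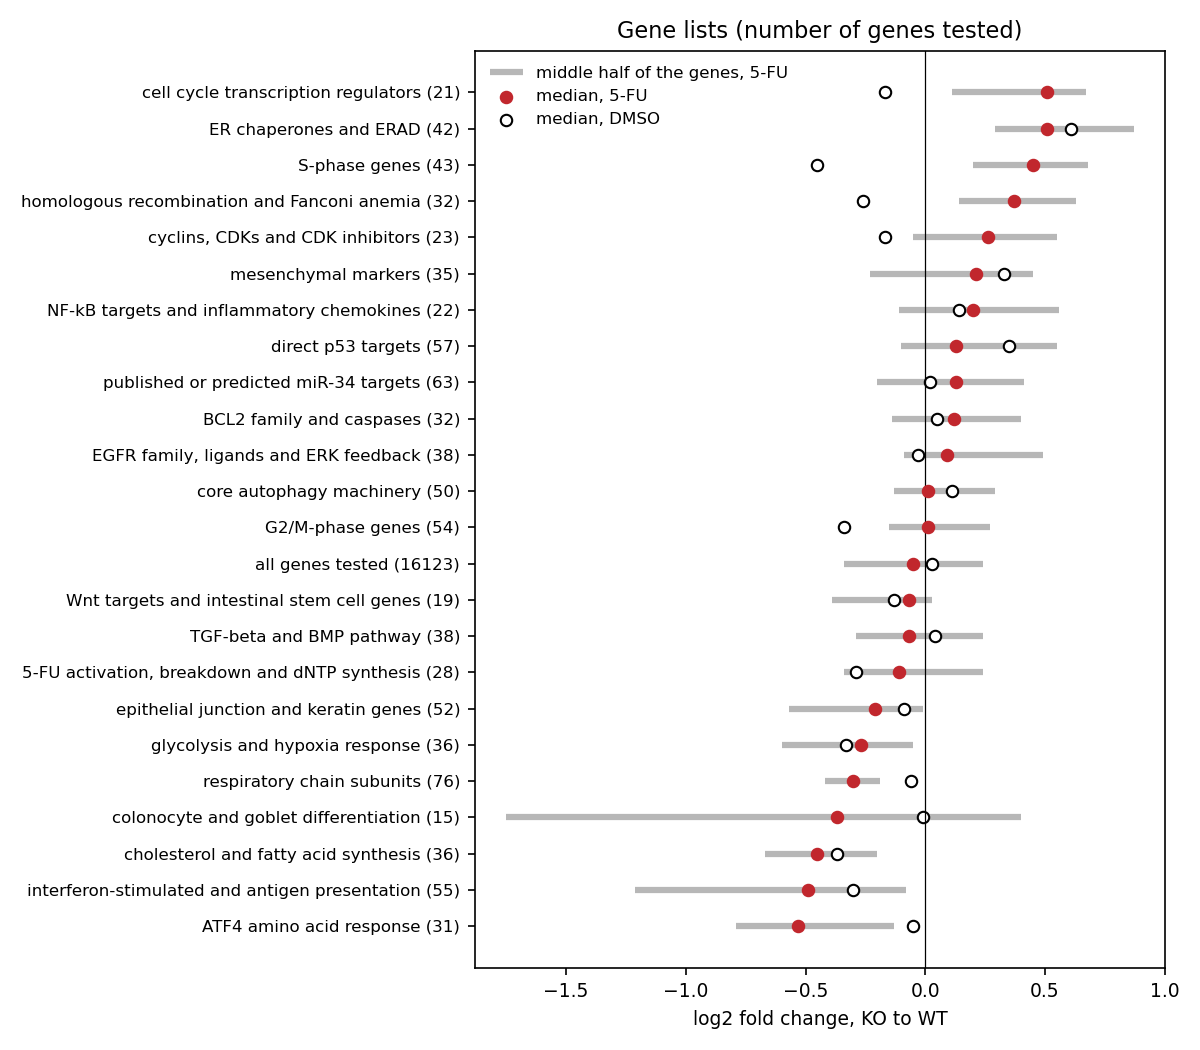
Log2 fold change of KO to *WT* cells (x axis) for 23 gene lists and for all genes tested (y axis, number of genes in parentheses). Red points are medians after 5-FU, grey bars the middle 50% of the genes of a list after 5-FU, and open circles medians under DMSO. The lists of S phase, homologous recombination and cell cycle regulators lie right of 0 after 5-FU and left of 0 under DMSO, and the ATF4 and interferon lists have the lowest medians after 5-FU.

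Of 55 mesenchymal markers 35 were tested, 7 were called higher and 5 lower (20 and 14.3%, beside 7.58 and 10.6% of all genes), and the median was 0.21. At FDR below 0.05, 13 were higher (37.1%, beside 21.6%) and 8 lower (22.9%, beside 28.0%). Under DMSO 12 were called higher and 3 lower, with a median of 0.33. *VIM*, which encodes vimentin, was at 1.63 and 1.68 CPM in *WT* and at 4.52, 4.39 and 4.22 CPM in KO libraries (1.40, SE 0.15, FDR = 1.29e-06). *SPARC*, a matrix glycoprotein, was at 1.45 and 0.857 CPM against 12.8, 14.6 and 13.4 CPM (3.51, SE 0.21, FDR = 2.26e-09). *SERPINE2*, an inhibitor of serine proteases, was at 153 and 152 CPM against 306, 290 and 314 CPM (0.99). Fibronectin went in the opposite direction, with *FN1* at 41.3 and 43.2 CPM in *WT* and 11.7, 14.1 and 13.6 CPM in KO libraries (-1.69, SE 0.10, FDR = 3.09e-09). *MMP2* (-2.07), *MMP9* (-1.63) and *THBS2* (-3.0) were also called lower, each at no more than 0.803 CPM in any of these libraries.

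Of 52 epithelial junction and keratin genes, 3 were called higher and 10 lower (5.77 and 19.2%, beside 7.58 and 10.6% of all genes). At FDR below 0.05, 28 were lower and 8 higher (53.8 and 15.4%, beside 28.0 and 21.6%), and the median was -0.21, beside -0.09 under DMSO. *CDH1*, which encodes E-cadherin, was at 208 and 205 CPM in *WT* and at 179, 176 and 183 CPM in KO libraries, a log2 fold change of -0.20 (SE 0.05, FDR = 0.00547) below the minimum fold. *KRT80* was at 119 and 123 CPM against 32.7, 33.8 and 36.3 CPM (-1.82, SE 0.09, FDR = 1.61e-10), and *KRT20*, a keratin of differentiated colonocytes, at 7.18 and 6.07 CPM against 1.19, 1.23 and 1.34 CPM (-2.41, FDR = 2.37e-08). *CLDN3*, a claudin of tight junctions, was at 41.4 and 30.2 CPM against 14.3 CPM in each KO library (-1.33). The keratins and junction proteins named here did not overlap between the groups. The 3 called higher were *CLDN2* (1.07), *CLDN1* (0.79) and *KRT23* (0.75), and the call of *CLDN1* (FDR = 0.0418) was lost in each fit that left out 1 of the 5 libraries, with values from 0.74 to 0.84.

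Of 42 genes of colonocyte and goblet cell differentiation only 15 were tested, since most were at or near 0 counts in all libraries. Among these, 6 were called lower and 2 higher (40.0 and 13.3%, beside 10.6 and 7.58% of all genes). *DPP4*, a brush border peptidase, was at 10.7 and 12.9 CPM in *WT* and at 1.86, 2.23 and 2.46 CPM in KO libraries (-2.43, FDR = 1.07e-09). *CEACAM1*, an adhesion molecule, went the other way, at 43.7 and 40.6 CPM against 142, 143 and 143 CPM (1.76, FDR = 7.55e-11). *VIL1*, which encodes the microvillus protein villin, was at 0.596 and 0.308 CPM against 1.03, 1.19 and 2.21 CPM (1.66, FDR = 0.00591), and its value was 1.30 and not called without *WT* replicate 3. Of 19 Wnt targets and intestinal stem cell genes, *RNF43*, a ubiquitin ligase that removes Wnt receptors, was called higher, at 14.5 and 13.8 CPM against 43.2, 46.4 and 42.1 CPM (1.63, FDR = 3.54e-10), and *MYC* lower.

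In the EGFR and ERK pathway (38 genes) 6 were called higher and 3 lower (15.8 and 7.89%, beside 7.58 and 10.6% of all genes), and under DMSO 5 and 9. The ligand *HBEGF* was at 17.5 CPM in both *WT* libraries and at 40.2, 39.1 and 39.2 CPM in KO libraries (1.18, FDR = 6.22e-09), and the early gene *JUN* at 26.9 and 25.4 CPM against 52.9, 55.8 and 49.6 CPM (1.01). *EGF* (0.85) and *EGR2* (0.97) were called higher as well. The ligands *BTC* (-0.82) and *EREG* were called lower. *EREG*, which encodes epiregulin, was at 233 and 300 CPM against 183, 172 and 174 CPM (-0.59), close to the minimum fold, and was not called without *WT* replicate 3 (-0.40), KO replicate 2 (-0.57) or replicate 3 (-0.58) nor with TMM factors (-0.55). In the TGF-beta and BMP pathway (38 genes) 5 were called in each direction (13.2%, beside 7.58% of all genes higher and 10.6% lower). *TGFBR2*, the type II receptor, was at 43.4 and 48.9 CPM against 25.6, 26.1 and 26.9 CPM (-0.82, FDR = 2.21e-07), and the inhibitor *SMAD6* at 25.4 and 20.5 CPM against 8.28, 8.21 and 9.73 CPM (-1.40, FDR = 6.35e-08). The ubiquitin ligase *SMURF2* (-0.76) and the BMP target *ID2* (-0.91) were lower too, whereas the ligand *TGFB2* (2.70) and the activin antagonist *FST* (2.13) were higher from levels below 1 CPM in *WT*. *SMAD9* (0.76) was not called without KO replicate 1 (0.61).

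Interferon-stimulated genes formed the list with the most genes called lower. Of 39 tested, 25 were called lower and 0 higher (64.1%, beside 10.6% of all genes), 32 were lower and 3 higher at FDR below 0.05, and the median was -0.82, beside -0.50 under DMSO with 13 called lower and 2 higher. *OAS1* was described above. *BST2*, or tetherin, which retains budding virus at the membrane, was at 9.38 and 11.7 CPM in *WT* and at 1.82, 1.64 and 1.34 CPM in KO libraries (-2.71, SE 0.15, FDR = 1.43e-09). *SAMD9L*, an antiviral restriction factor, had 21 and 19 counts against 1, 1 and 2 counts (ratio 11.2, interval 4.06 to 43.2). *XAF1*, an interferon-induced antagonist of XIAP, had 7 and 22 counts against 1, 3 and 0 counts (ratio 8.14, interval 2.86 to 31.9), and its call was lost without KO replicate 1 (-2.84) or replicate 3 (-2.48). Of 16 genes of antigen presentation only *CD274* was called, and the median was -0.08. Over both groups 1 gene was called higher, and 3 with TMM factors or DESeq2.

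Targets of NF-kB and inflammatory chemokines were mostly silent, with 22 of 38 tested, of which 5 were called higher and 1 lower (22.7 and 4.55%, beside 7.58 and 10.6% of all genes). *LCN2*, which encodes the iron-binding protein lipocalin 2, was at 57.3 and 48.7 CPM in *WT* and at 23.1, 21.6 and 21.1 CPM in KO libraries (-1.27, FDR = 4.24e-09), although it lies at the start of a run of genes on chromosome 9 that were higher together. *IL1A* (2.47), *SAA1* (3.45) and *NFKBIZ* (0.98) were higher at low levels, up to 7.29 CPM for *NFKBIZ*. *BIRC3*, an inhibitor of apoptosis proteins, was at 18.8 and 24.1 CPM against 33.7, 33.1 and 32.7 CPM (0.63), with 0.46 and no call without *WT* replicate 2.

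Of 36 genes of cholesterol and fatty acid synthesis, 11 were called lower and 1 higher (30.6 and 2.78%, beside 10.6 and 7.58% of all genes), 28 were lower at FDR below 0.05 (77.8%, beside 28.0%), and the median was -0.45, beside -0.37 under DMSO. *FDFT1*, which makes squalene, was at 198 and 199 CPM in *WT* and at 86.2, 77.9 and 85.5 CPM in KO libraries (-1.26, SE 0.05, FDR = 3.99e-11). *SCD*, the main desaturase of fatty acids, was at 899 and 991 CPM against 408, 414 and 426 CPM (-1.19). *SQLE* had the lowest value of the list (-2.13), within the run on chromosome 8, where its neighbours had a median of -0.73. The desaturase *FADS2* (0.88) was called higher.

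In glycolysis and the response to hypoxia (36 genes) 12 were called lower and 1 higher (33.3 and 2.78%, beside 10.6 and 7.58% of all genes), with a median of -0.27, beside -0.33 under DMSO. The gene called higher was *SLC2A1*, the glucose transporter GLUT1, at 226 and 191 CPM in *WT* and 467, 472 and 497 CPM in KO libraries (1.20, SE 0.07, FDR = 1.9e-09). The transporter *SLC2A3* was at 7.59 and 7.85 CPM against 3.21, 3.72 and 3.05 CPM (-1.21). The hypoxia genes *CA9* (-3.13) and *ANKRD37* (-1.12) were called lower at levels up to 4.83 CPM, and *NDRG1* (-1.33) lies in the run on chromosome 8. Of 76 nuclear-encoded subunits of the respiratory chain, 9 were called lower (11.8%, near the 10.6% of all genes) and 1 higher, and with DESeq2 5 were called lower. At FDR below 0.05, 53 were lower (69.7%, beside 28.0% of all genes, and 42 genes with DESeq2) and 2 higher, with a median of -0.30, beside -0.06 under DMSO. *NDUFC2*, a subunit of complex I, was at 105 and 92.5 CPM against 41.0, 44.4 and 38.9 CPM (-1.25, FDR = 2.67e-09). The calls of *CYC1* (-0.82), *NDUFB9* (-0.75) and *NDUFA10* (0.84) lie in the runs on chromosomes 8 and 2. *ATP5ME* (-0.68, FDR = 0.0395) was not called without *WT* replicate 2 (-0.41), KO replicate 1 (-0.66) or replicate 3 (-0.51).

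Whether a difference depended on 5-FU was examined with the DMSO libraries, whose levels do not enter the log2 fold changes after 5-FU although they share in the estimate of the spread. Under DMSO 1467 genes (9.10%) were called higher and 802 (4.97%) lower in KO cells. Of the genes called higher after 5-FU 582 were called higher under DMSO too (47.6% of the former and 39.7% of the latter), and of those called lower 537 (31.6 and 67.0%). Across the 16123 genes, which are not independent and share the clones, Pearson's r of the log2 fold changes under the 2 treatments was 0.55. The interaction, the log2 fold change after 5-FU minus that under DMSO, was called higher for 551 genes (3.42%) and lower for 1073 genes (6.66%). This split depends on the scaling, with 676 and 844 genes with TMM factors (44.5% higher, beside 33.9% with upper-quartile factors) and 703 and 674 with DESeq2 (51.1%). Of the genes called higher after 5-FU, 256 (20.9%) were also called higher in the interaction, and of those called lower 443 (26.0%) were called lower in it. For 767 and 1028 of them the interaction had an FDR of 0.05 or more. The interaction contains the difference after 5-FU by which these genes were picked, which favours the same direction. The shares of 20.9 and 26.0% are therefore no separate evidence and cannot be set against those of all genes.

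In the interaction 37 of the 43 S-phase genes were called higher and 0 lower, as were 18 of the 32 genes of homologous recombination, 10 of the 21 cell cycle regulators and 13 of the 54 G2/M genes (0 lower in each). Over all genes tested 3.42% were called higher and 6.66% lower in the interaction. *CCNE2* had the largest positive interaction among named genes of the cell cycle (2.81, FDR = 1.34e-09), and *MYBL1* (1.71) and *CLSPN* (1.69) were called higher as well. *CCNE2* stood at 22.7 CPM in *WT* and 20.1 CPM in KO cells under DMSO, so that after 5-FU it was lower in the former and higher in the latter. Of the 31 ATF4 genes 14 were called lower in the interaction, with *CHAC1* at -2.42, *ASNS* at -1.22 and *PHGDH* at -1.10. Of the 57 p53 targets 8 were called lower, among them *CDKN1A* (-1.24, FDR = 1.41e-08) and *MDM2* (-0.92). A further 2 were called higher, near the share of all genes. *CDKN1A* was at 167 CPM in *WT* and 469 CPM in KO cells under DMSO (log2 fold change 1.49) and differed by 0.26 after 5-FU. Of 38 genes of the EGFR and ERK pathway 11 were called higher and 2 lower, the latter no more than the share of all genes.

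**Figure D5:**
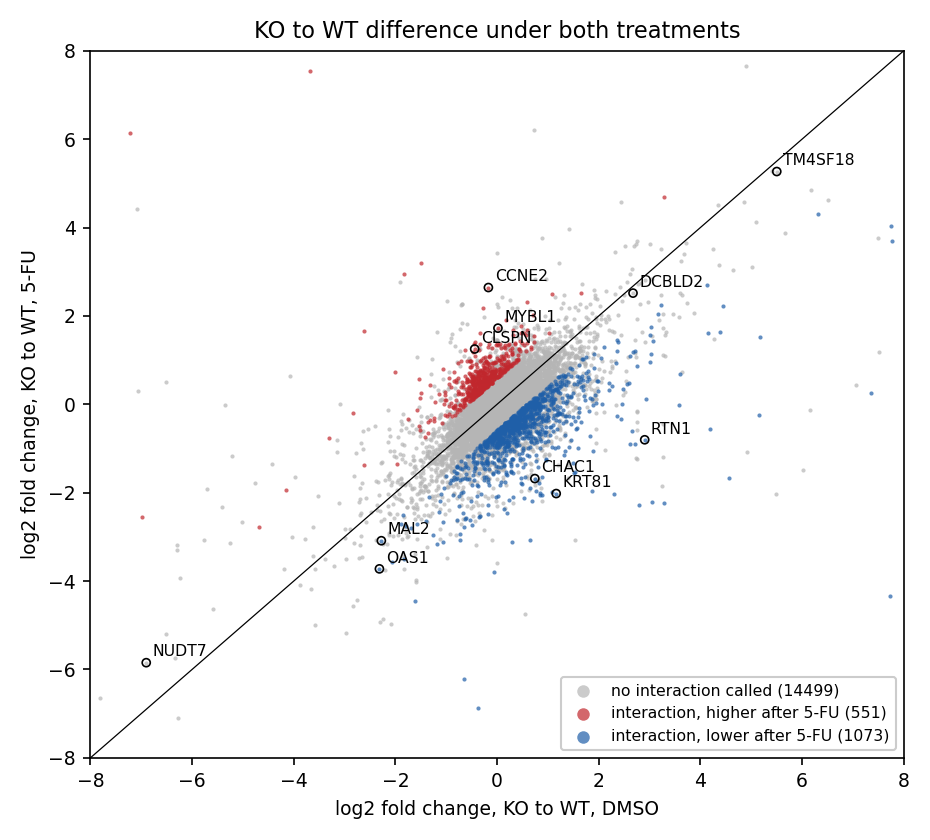
Log2 fold change of KO to *WT* cells after 5-FU (y axis) against that under DMSO (x axis) for each gene, with the line of equal values. Red and blue points are the 551 and 1073 genes called higher and lower in the interaction, grey points the others, circles mark named genes, and 8 genes lie outside the axes. *TM4SF18* and *DCBLD2* lie near the line, whereas *CCNE2*, *MYBL1* and *CLSPN* lie above it.

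Some differences were shared by long runs of neighbouring genes. After the data had been seen, runs of at least 10 consecutive genes were sought in which the 40 nearest genes had a median log2 fold change of at least 0.4 or at most -0.4, and 5 runs with 407 genes were found. On chromosome 2, 63 genes from *ALPP* to *LINC01881* (positions 232378724 to 242130807, 9.75 Mb) had a median of 1.02 after 5-FU and 1.01 under DMSO, with 52 called higher and 3 lower. On chromosome 8, 171 genes in a stretch of 42.8 Mb had a median of -0.73 and -0.59, with 113 called lower and 1 higher. The other 3 runs lay close together on chromosome 9, between *LCN2* and *FAM157B* (positions 128149071 to 138253217), with medians of 0.47 to 0.51 after 5-FU and 0.58 to 0.61 under DMSO. The runs held 109 of the genes called higher and 118 of those called lower. Outside them 1113 of 15716 genes were called higher and 1584 lower. *ATG4B*, *BOK*, *DTYMK*, *NOTCH1* and *MYC* are among the genes within the runs. *CCNE2* and *RAD54B* lie on chromosome 8 outside the run, with medians of their neighbours of 0.34 and 0.37. Whether these runs reflect the clones or the deleted miRNAs was not tested.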

How the data were processed

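Total RNA of HCT116 cells exposed to 5-FU or DMSO for 48 h was converted to cDNA with random primers and sequenced from both ends. The authors mapped the reads with CLC Genomics Workbench to GRCh38 (hg38) with Ensembl annotation and deposited raw counts per gene, to which the filter and scaling of their own tests had not been applied. Whether counting used the strand is not given in the sources used here, so a gene and its antisense partner cannot be told apart.

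A gene was kept if any of the 11 libraries held 20 counts of it or more (16123 of 60580). A single model with 1 mean per state was fitted with edgeR 4.0.16 (R 4.3.3) using upper-quartile factors, and the contrasts of interest were tested with its quasi-likelihood test. CPM are counts divided by the scaled library total, and the SE is the log2 fold change divided by the square root of the F statistic. The fit was tested on simulated data. DESeq2 1.42.0 and other settings served as alternatives. Totals of 22831415 to 39064210 counts after 5-FU limit precision mainly for genes below 1 CPM, and intervals cover counting error only. Tables were formed with Python 3.11.15 and pandas 2.3.3.

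Genes and lists were chosen with earlier results of these data known. The text names the 12 called genes with the largest and the 12 with the smallest fold change among those of at least 5 CPM in the higher state and without overlap, 5 in each direction with at most 3 counts in the other state, 5 in each direction by difference of CPM, up to 4 called members of each list and direction, 6 in each direction by interaction, and the genes of direct interest to the study (among them *CDKN1A*, *MDM2*, *FOXM1*, *CDH1* and *TYMS*). Not all of them are described. Families were formed by the start of the gene symbol. No test of gene sets was made.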

Additional observations from a re-analysis of the deposited data

Results flagged for a closer look

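The interaction test found 551 genes with a higher and 1073 with a lower log2 fold change of KO to *WT* cells after 5-FU than under DMSO. Besides *CCNE2* (interaction 2.81), *MYBL1* (1.71), *CLSPN* (1.69) and *CHAC1* (-2.42), this concerned genes with the largest values by the rule for named genes and genes whose difference had opposite signs under the 2 treatments. Positive values were found for *VIL1* (4.27), *ZNF525* (1.92), *PAG1* (1.86), *RIBC2* (1.69) and *EGR2* (1.57). Negative values were found for *HRNR* (-2.82), *KRT81* (-3.18), *RTN1* (-3.71), *MUC13* (-4.17), *AC025423.2* (-5.25) and *AC011611.3* (-12.05). Under DMSO *HRNR* and *RTN1* had means of 0.0508 and 0.0925 CPM in *WT* cells, and *MUC13* and *VIL1* of 0.0498 and 0.0361 CPM in KO cells. The sizes of these 4 interactions are therefore uncertain. *AC025423.2* was not called after 5-FU with DESeq2 (-2.2) or without KO replicate 1 (-1.82), and its value was -1.58 without *WT* replicate 2. *AC011611.3* was at 10.5 and 0 CPM in the *WT* libraries after 5-FU, so its value rests on replicate 2.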

How the results depend on the processing

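By upper-quartile scaling 1222 genes were called higher and 1702 lower after 5-FU, 2269 in either direction under DMSO and 1624 in the interaction. With the minimum fold of 1.5 placed within the test the counts were 478, 709, 929 and 289, and without a minimum fold 3483, 4512, 7472 and 4207. With at least 20 counts required in every library 1127 genes were called lower. With RUVg and 1 factor the interaction had 924 genes, and 98.9% of the variance of this factor lay between the treatments. Many of these were other genes. Of the 551 genes called higher in the interaction by upper-quartile scaling 223 (40.5%) were kept, and of the 1073 called lower 249 (23.2%). With the identical library kept as labelled the interaction had 428 genes, which kept 168 (30.5%) of those called higher and 210 (19.6%) of those called lower. Leaving out 1 library gave 1127 to 1336 genes higher, 1414 to 1782 lower, 2088 to 2278 under DMSO and 1396 to 1972 in the interaction. Where this left 1 *WT* library after 5-FU, it was assumed to vary like the other states.

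A replicate block by the numbers of the titles gave 1177, 1596, 2249 and 1517 genes. Deviations from the state mean of same-numbered *WT* and KO libraries after 5-FU correlated at 0.20 and -0.06 over 11491 genes. With 2 *WT* libraries the deviation of 1 is the negative of the other, so these values cannot show whether the numbers mark pairs. Under DMSO the same-numbered libraries correlated at 0.18, 0.06 and -0.21. The column names number the *WT* libraries treated with 5-FU differently, and a block by these numbers, added after seeing the data, gave 1200, 1596, 2225 and 1521 genes (correlations of -0.26 and -0.20). Without the runs of neighbouring genes, also added later, 1113, 1584, 2046 and 1577 genes were called.

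Among named genes, the sign turned for *MDM2* with the identical library kept (0.04) and for *AC011611.3* without *WT* replicate 2 (5.83, range -5.30 to 5.83 without 1 library). Among list medians it turned for Wnt targets without *WT* replicate 2 (0.02, range -0.19 to 0.02), for colonocyte and goblet differentiation without that replicate (0.04, range -0.43 to 0.04) and with the identical library kept (0.11), for the TGF-beta and BMP pathway with the identical library kept (0.04), and for markers of other cell types without the filter (-0.40). Medians near 0 also changed sign. That of G2/M genes (0.01) was -0.17 with the identical library kept and -0.06 without *WT* replicate 2, and that of the autophagy machinery (0.01) was -0.01 with the replicate block by the titles, -0.05 without *WT* replicate 2 and -0.02 without KO replicate 1. The cause was not tested. Named genes were not followed with the minimum fold within the test, which kept 39.1% of all genes called higher and 41.7% of those called lower. Of the values of named genes under the other settings, 3321 kept their direction and call, 79 lost and 2 gained the call. A value without an FDR was counted as kept. Depth limits genes below 1 CPM most.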

Other observations

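Genes were also grouped into families by their symbols, and the shares called are set beside 7.58% of all genes called higher and 10.6% called lower. Of 78 cytosolic ribosomal protein genes (RPL and RPS), 0 were called higher and 3 lower in KO than in *WT* cells after 5-FU. At FDR below 0.05 (edgeR, adjusted over all genes) 68 were lower (87.2%, beside 28.0% of all genes) and 1 higher. The median log2 fold change was -0.32, beside -0.01 under DMSO. With DESeq2 57 were lower at this FDR, and the median was -0.27. Of all genes at 100 CPM or more 38.9% were lower at FDR below 0.05. Among genes without a seed match and with a 3' UTR below 500 bases the share was 38.3%. Of 75 mitochondrial ribosomal protein genes (MRPL and MRPS) 49 were lower (65.3%) and 3 higher at FDR below 0.05, with a median of -0.28, beside -0.17 under DMSO. Many genes of both families have processed copies with which reads can be shared.

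Of 19 keratin genes (KRT) 11 were called lower (57.9%) and 1 higher after 5-FU, with a median of -0.70, beside 0.10 under DMSO, where 4 were called lower and 2 higher. Of 29 HOX genes, which specify position along the body axis, 7 were called lower (24.1%) and 1 higher (median -0.43). Of 29 collagen genes (COL) 3 were called in each direction after 5-FU (10.3%), whereas 11 were called higher and 0 lower under DMSO. Of 18 replication-dependent histone genes 5 were called higher (27.8%) and 0 lower (median 0.46), beside 4 and 0 under DMSO. Of 387 zinc finger genes (ZNF) 42 were called higher and 22 lower (10.9 and 5.68%). Of 217 long non-coding RNAs of the LINC series 22 were called higher and 60 lower (10.1 and 27.6%), where of all 2533 genes between 1 and 5 CPM 528 were called lower (20.8%).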
